A study of Mus musculus with 16 samples.

Results

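The genes described here are the *Id* genes *Id1*, *Id2* and *Id3*, the transcription factor gene *Atoh8*, and the E-protein genes *Tcf3*, *Tcf4* and *Tcf12*, in mouse TM4 cells. They were found by matching the Ensembl identifiers of the deposited count table to gene symbols in an annotation of GRCm39. All 7 genes were found, of 56748 genes in the table. *Id1*, *Id2*, *Id3* and *Atoh8* were chosen by their change in the *gdf6Y* comparisons of these same samples, so their values in those comparisons are a description without a test. *Tcf3*, *Tcf4* and *Tcf12* were chosen by their function.

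TM4 is an established mouse cell line of Sertoli cell origin. Each well received 2.5 µg of plasmid, and RNA was taken 24 h later. The EV group (6 samples) received the pcDNA3.1-HA vector without insert, the *gdf6Y* group (5 samples) received the *gdf6Y* plasmid pcDgdf6Y, and the del9 group (5 samples) received pcDgdf6Ydel9. *gdf6Y* encodes a growth factor of the TGF-β family from the killifish *Nothobranchius furzeri*, and del9 is a mutant variant with an in-frame deletion in the prodomain. All groups thus share the cell line and the transfection protocol. Whether the plasmids share a backbone is not stated in the labels or methods. The transfection was transient, and the share of cells that took up the plasmid, as well as the transgene RNA itself, was not analysed here. The labels do not say whether replicates came from separate cultures, so the spread between them may be partly technical. Per sample, 21486850 to 26444903 reads were counted on genes.

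Id proteins have a helix-loop-helix domain for dimerization but lack the basic region that contacts DNA. They bind the E proteins, widely expressed basic helix-loop-helix (bHLH) proteins, and keep them from pairing with tissue-restricted bHLH partners on the E-box, the DNA motif CANNTG. *Id* genes are well-known direct targets of BMP signaling through Smad1 and Smad5, and Atoh8 is a bHLH protein that is also induced by BMPs in several cell types. In Sertoli cells, Id and E proteins have been studied in connection with proliferation and differentiation.

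Because *Id1*, *Id2*, *Id3* and *Atoh8* were higher together, the DNA before their starts was searched for Smad-type motifs and E-boxes. RefSeq (GRCm38.p6) gave a promoter window for 5 of the 7 genes, and *Id1* and *Tcf4* had no entry. The windows hold 250 bases before the start and were located in GRCm39 by exact match. The motifs were GGCGCC and GGAGCC, described for Smad1 and Smad5, GTCTG, a form of the Smad box, and the E-box CANNTG, on both strands. No match overlapped another in the windows of *Id2*, *Id3* and *Atoh8*. The windows of *Id2* and *Id3* lie wholly within the 5′ UTR of longer GENCODE transcripts, so only 30 bases around each match are printed, with the match in capitals. For *Atoh8*, the 209 bases outside every annotated transcript of the gene are shown, with both E-boxes in capitals.
Id2 GGCGCC, chr12:25146305-25146334, minus strand: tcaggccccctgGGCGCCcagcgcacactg
Id2 E-box, chr12:25146270-25146299, minus strand: aatttgccacccCAGCTGggctctcgcccg
Id2 GGAGCC, chr12:25146162-25146191, minus strand: gtatgatggacgGGAGCCcttccaccaatg
Id3 GGAGCC on the opposite strand, chr4:135870934-135870963, plus strand: cctcgcatccgaGGCTCCgctgtcctcggc
Id3 GTCTG on the opposite strand, chr4:135870953-135870982, plus strand: ctgtcctcggcgtCAGACcagcctaaggaa
Id3 GTCTG, chr4:135871052-135871081, plus strand: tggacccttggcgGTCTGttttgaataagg
Atoh8, chr6:72212603-72212811, minus strand: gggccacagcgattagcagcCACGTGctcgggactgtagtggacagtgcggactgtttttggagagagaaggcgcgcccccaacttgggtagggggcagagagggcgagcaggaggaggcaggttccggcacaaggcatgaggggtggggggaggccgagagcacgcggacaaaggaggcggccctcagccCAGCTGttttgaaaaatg

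The *Id2* window thus held GGCGCC from 231, an E-box from 196 and GGAGCC from 88 bases before the start. *Id3* held GGAGCC from 187 and GTCTG from 167 and from 68 bases before its start, and no E-box. *Atoh8* held only E-boxes, from 230 and from 59 bases before the start. Among the E-protein genes, the window of *Tcf3* held 1 E-box, and of the 3 windows of *Tcf12*, 2 held an E-box and 1 of those also held GGAGCC and GTCTG. These motifs are common. GGCGCC occurred in 9.59% of 32851 windows of the same length, GGAGCC in 26.0%, GTCTG in 42.2% and the E-box in 66.2%, so the matches are a description of the letters and not evidence of binding.

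The *Id* genes were highest in every *gdf6Y* sample. Values are normalized counts, that is, counts divided by the effective library size (TMM) and multiplied by its mean over the 16 samples. *Id1* (chromosome 2 of GRCm39, 152566218 to 152579544, plus strand) had between 985 and 1081 in EV, with a median of 1029. In del9 it was counted at 1147, 1235, 1326, 1229 and 1237, and in *gdf6Y* at 1842, 1916, 2052, 1852 and 1974. The groups did not overlap for any pair, so *Id1* stood in the order EV, del9, *gdf6Y*.

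*Id2* (chromosome 12, 25143798 to 25147282, minus strand) had between 367 and 430 normalized counts in EV, with a median of 397. It had 417, 430, 439, 438 and 464 in del9, where the ranges overlap with EV. In *gdf6Y* it had 631, 689, 682, 747 and 793, all above the other groups. The coefficient of variation of *Id2* was 8.85% in *gdf6Y*, where counting alone gives 3.79%, and 3.87% in del9, where counting alone gives 4.71%.

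*Id3* (chromosome 4, 135870808 to 135873066, plus strand) had between 649 and 708 normalized counts in EV, with a median of 671. The del9 samples, at 657, 672, 711, 682 and 723, spanned nearly the same range. The *gdf6Y* samples had 1092, 1104, 1089, 1065 and 1178. *Id4*, the fourth gene of the family, had at most 1 read in any of the 16 samples, so the *Id* transcripts of these cells came from the other three genes.

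The mean of *Id1* was 1927 ± 87.6 (SD, n = 5) with *gdf6Y* against 1035 ± 38.3 (SD, n = 6) with EV, a log2 fold change of 0.90 (SE 0.035). *Id2* and *Id3* differed from EV by 0.84 (SE 0.048) and 0.72 (SE 0.040) on the log2 scale. Against del9, the log2 fold changes were 0.65 (SE 0.038) for *Id1*, 0.70 (SE 0.050) for *Id2* and 0.69 (SE 0.043) for *Id3*. These genes were selected on these contrasts. The comparison of *gdf6Y* with EV called 1.7% of 26316 genes higher at an adjusted p-value below 0.05, and that with del9 called 0.599% of 25878 genes higher. In 1.26% of the genes every *gdf6Y* sample lay above every EV sample, and in 0.56% above every del9 sample. Of the 12584 genes with a mean count of 10 or more, 3.5% were called higher against EV and 0.969% against del9.

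*Atoh8* (chromosome 6, 72183161 to 72212602, minus strand) was the least abundant of the genes and had the highest fold change. EV samples had between 39.4 and 55.7 normalized counts, with a median of 51.4. The del9 samples had 47.7, 47.9, 54.7, 59.8 and 57.2, within a similar range. The *gdf6Y* samples had 162, 120, 161, 135 and 149, without overlap with the other groups. The log2 fold change was 1.58 (SE 0.11) against EV and 1.45 (SE 0.11) against del9, a description as for the *Id* genes. At 38 to 53 reads per EV sample, counting alone gives a coefficient of variation of 14.5%, close to the 13.4% observed.

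The E-protein genes did not follow the *Id* genes. *Tcf3*, which encodes E12 and E47 (chromosome 10, 80244046 to 80269594, minus strand), had between 2701 and 2917 normalized counts in EV, with a median of 2817. The *gdf6Y* samples had 2750, 2959, 2989, 2820 and 2961, which overlap with EV. The del9 samples had 3085, 3259, 3171, 2919 and 3239, all above every EV sample.

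*Tcf4*, which encodes E2-2 (chromosome 18, 69476427 to 69822150, plus strand), had between 1836 and 1995 normalized counts in EV, with a median of 1947. With *gdf6Y* it had 1948, 1862, 1795, 1932 and 1890, again overlapping with EV. The del9 samples had 1787, 1818, 1722, 1756 and 1766, all below every EV sample. *Tcf12*, which encodes HEB (chromosome 9, 71749970 to 72019177, minus strand), had between 3497 and 3759 in EV. It had 3487, 3671, 3515, 3578 and 3645 in del9 and 3547, 3567, 3542, 3708 and 3376 in *gdf6Y*, so that no group stood apart.

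With *gdf6Y*, none of the 3 E-protein genes was called against EV by the edgeR quasi-likelihood test, adjusted over all 26316 genes, a comparison that called 1.7% of genes higher and 3.38% lower. At an unadjusted p below 0.05 and in DESeq2 the number was 0 as well. Of genes with a mean count of 10 or more, 3.5% were called higher and 7.02% lower. *Tcf3* differed by 0.038 on the log2 scale (95% interval -0.021 to 0.097, adjusted p = 0.570), *Tcf4* by -0.033 (-0.097 to 0.030, adjusted p = 0.600) and *Tcf12* by -0.032 (-0.089 to 0.025, adjusted p = 0.570). The intervals exclude changes of the size seen for the *Id* genes.

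Against del9, *Tcf3* differed with *gdf6Y* by -0.11 (SE 0.034, adjusted p = 0.0819) and *Tcf4* differed by 0.096 (SE 0.036, adjusted p = 0.279), neither past the threshold. *Tcf12* differed by -0.0076 (SE 0.033, adjusted p = 0.970). Same-numbered samples of these groups vary together, and with the replicate number as a block both genes passed in edgeR, *Tcf3* with an adjusted p = 0.00255 and *Tcf4* with an adjusted p = 0.0490. *Tcf3* also passed without del9 replicate 4 (adjusted p = 0.0175). With any other replicate left out, neither gene passed in edgeR (adjusted p up to 0.335 for *Tcf3* and 0.712 for *Tcf4*). Neither passed in the other alternative fits without the block, DESeq2 among them (adjusted p up to 0.297 for *Tcf3* and 0.312 for *Tcf4*). The unblocked comparison called 0.599% of genes higher and 0.41% lower. That is 155 and 106 genes, against 289 and 372 with the block.

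Within replicate numbers 1 to 5, the log2 ratio of *gdf6Y* to del9 for *Tcf3* was -0.17, -0.14, -0.09, -0.05 and -0.13, below 0 in all 5 pairs. For *Tcf4* it was 0.12, 0.03, 0.06, 0.14 and 0.10, above 0 in all 5 pairs. *Tcf12* was above 0 in 3 of 5 pairs. The share of all genes with the same sign in all 5 pairs is not given here, so these signs are a description. The same ratio lay between 0.59 and 0.68 for *Id1*, between 0.60 and 0.77 for *Id2*, between 0.62 and 0.73 for *Id3* and between 1.18 and 1.76 for *Atoh8*.

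All 7 genes were also tested in del9 against EV. This comparison shares its samples with those by which the *Id* genes and *Atoh8* were chosen, and the 7 genes were taken with earlier results of these data known, so it is not an independent test. It asks whether the mutant plasmid changed the same genes. *Id1* was higher in del9, 1235 ± 63.4 (SD, n = 5) against 1035 ± 38.3 (SD, n = 6), a log2 fold change of 0.26 (SE 0.036, adjusted p = 2.56e-10 in edgeR). *Id2* was higher by 0.15 (SE 0.052, adjusted p = 0.0412). This call was lost with DESeq2 (adjusted p = 0.0636), with both other scalings, with all 3 groups in one model, and when 1 of EV replicates 1, 3 and 4 or del9 replicates 3, 4 and 5 was left out (adjusted p between 0.0680 and 0.187). *Id3* differed by 0.034 (95% interval -0.050 to 0.12, adjusted p = 0.681) and *Atoh8* by 0.14 (-0.13 to 0.40, adjusted p = 0.562). For *Atoh8* the low counts leave a wide interval.

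Of the E-protein genes, *Tcf3* was upregulated in del9 by 0.15 (SE 0.029, adjusted p = 8.19e-06) and *Tcf4* downregulated, with a log2 fold change of -0.12 (SE 0.032, adjusted p = 0.00285), in edgeR. *Tcf12* differed by -0.0185 (SE 0.028, adjusted p = 0.747). In percent, *Tcf3* rose by 11.3, *Tcf4* fell by 8.16 and *Id1* rose by 19.6. The background of this comparison is high. Of 26226 genes, 4.82% were called higher and 4.43% lower, 1263 and 1162 genes, which became 863 and 1492 when libraries were scaled by total counts. Every del9 sample lay above every EV sample in 2.17% of the genes, *Id1* and *Tcf3* among them, and below in 1.6%, *Tcf4* among them. Of the 12584 genes with a mean count of 10 or more, 9.97% were called higher and 8.25% lower. The calls of *Id1*, *Tcf3* and *Tcf4* held in each of the alternative fits and with each replicate left out in turn.

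**Figure D1:**
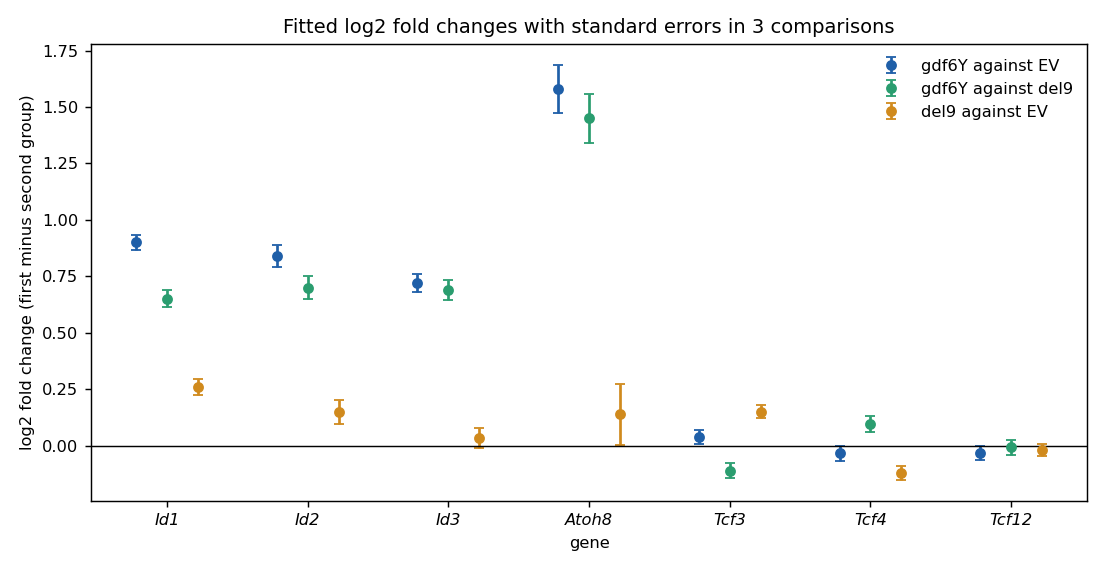
Fitted log2 fold changes (vertical axis, first minus second group) with standard errors as whiskers for the 7 genes in the comparisons *gdf6Y* against EV, *gdf6Y* against del9 and del9 against EV. The *Id* genes and *Atoh8* lie between 0.65 and 1.58 in both *gdf6Y* comparisons, and the E-protein genes lie between -0.12 and 0.15 in all comparisons.

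Levels of different genes were compared as RPKM, reads per kilobase of exonic length scaled to the effective library size. In EV, *Id1* was the highest of the *Id* genes with 23.7 ± 0.876 RPKM (SD, n = 6), followed by *Id3* with 15.3 ± 0.470 and *Id2* with 4.60 ± 0.286. *Tcf3* was the highest E-protein gene with 13.9 ± 0.358 RPKM, ahead of *Tcf12* with 8.14 ± 0.232 and *Tcf4* with 2.77 ± 0.0788. *Atoh8* was at 0.777 ± 0.104 RPKM. With exonic lengths, none of these neighbours in the order overlapped within EV. The distance between the E-protein genes, and the order between the families, depend on the length used. With the length of the canonical transcript the order within each family was the same, but *Tcf3* was at 26.3 ± 0.677 RPKM and *Tcf12* at 25.0 ± 0.712. Both means were then above that of *Id3* (21.4 ± 0.659), and *Tcf4* (8.73 ± 0.248) was above *Id2* (6.51 ± 0.405). *Id1* made up 54.3% ± 0.508 (SD, n = 6) of the *Id* sum in EV, 57.7% ± 0.929 (SD, n = 5) in del9 and 57.0% ± 1.24 (SD, n = 5) in *gdf6Y*. *Id3* made up 35.1% ± 0.788, 31.9% ± 0.629 and 32.4% ± 0.887 in the same groups, and the share of *Id2* lay between 9.85% and 11.6% in all 16 samples.

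The balance of the families was taken per sample as the RPKM sum of *Id1*, *Id2* and *Id3* divided by that of *Tcf3*, *Tcf4* and *Tcf12*. It includes genes chosen by their change, so it is given without a test. The ratio was between 1.71 and 1.83 in EV, with a median of 1.75. It was 1.80, 1.80, 1.99, 1.95 and 1.88 in del9, overlapping with EV, and 3.06, 3.04, 3.15, 3.01 and 3.26 in *gdf6Y*. The *Id* sum was 43.5 ± 1.35 RPKM (SD, n = 6) in EV, 48.9 ± 2.08 (SD, n = 5) in del9 and 77.3 ± 2.89 (SD, n = 5) in *gdf6Y*. The E-protein sum was 24.8 ± 0.579, 26.0 ± 0.802 and 24.9 ± 0.392 in these groups, so the groups differed mainly in the numerator. On the log2 scale, the ratio of *gdf6Y* exceeded that of EV by 0.82 and that of del9 by 0.72, and del9 exceeded EV by 0.10. The last difference was -0.0088 when *Id1* was left out of the sum. With canonical transcript lengths, an alternative chosen after seeing the data, the ratio was 1.07 ± 0.0289 in EV, 1.17 ± 0.0529 in del9 and 1.91 ± 0.0741 in *gdf6Y*. The size of the ratio thus depends on the length used, and on raw counts without a length it was 0.251 ± 0.00721 in EV, 0.278 ± 0.0121 in del9 and 0.449 ± 0.0201 in *gdf6Y*.

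The genes around these families were taken from lists by function, 113 genes in all, of which 61 had a mean count of 10 or more. With *gdf6Y* against EV, 3 of these were called higher (4.92%) and 10 lower (16.4%), while 3.5% and 7.02% of all genes at that level were. Over the 82 list genes tested, the median log2 fold change was -0.0090, and over all genes tested -0.0021. Against del9, 2 were called higher (3.28%) and 1 lower (1.64%), beside 0.969% and 0.834% of all genes at that level, with a median of 0.014 over 80 list genes tested and of 0.0098 over all genes. With the replicate number as a block, these became 4 higher and 4 lower, the additional genes being *Myc*, *Mxd4*, *Mlxip*, *Snai2* and *Ep300* (adjusted p between 0.00143 and 0.0415). In del9 against EV, 7 were called higher (11.5%) and 12 lower (19.7%), beside 9.97% and 8.25% of all genes at that level, with a median of -0.029 over 80 and of -0.0054 over all genes. The largest log2 fold change among the called genes was -0.34. Of the 35 calls, 12 held under every alternative fit and with each replicate left out, 6 in *gdf6Y* against EV, 6 in del9 against EV and none between *gdf6Y* and del9. Calls and p-values below are from edgeR unless named otherwise.

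Class II bHLH genes encode the tissue-restricted partners of E proteins. Of 46 listed, only *Twist1*, *Twist2*, *Tal1* and *Scx* reached a mean count of 10. *Twist2*, a mesenchymal regulator, was called in del9 against EV, with 1389 ± 41.6 (SD, n = 5) against 1253 ± 29.3 (SD, n = 6) and a log2 fold change of 0.15 (adjusted p = 0.000453), in every alternative. *Twist1* was called with *gdf6Y* against EV, at 1373 ± 30.6 (SD, n = 5) against 1268 ± 62.1 (SD, n = 6), a log2 fold change of 0.12 (adjusted p = 0.0264). This call was lost without EV replicate 3, 4 or 6 or *gdf6Y* replicate 3 or 5 (adjusted p up to 0.105). *Tal1*, a regulator of blood cell formation, had 93.8 ± 12.5 normalized counts in EV and 95.9 ± 4.67 with *gdf6Y*. Between *gdf6Y* and del9, 0 of 19 tested genes of this list were called by edgeR or DESeq2, and 0 had an unadjusted p below 0.05.

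The bHLH proteins that bind E-boxes or related sites without E proteins, such as those of the Myc and Hif families, were represented by 27 genes with such counts. With *gdf6Y*, 5 were called lower than in EV and 0 higher by edgeR. DESeq2 called 3 lower (*Arnt*, *Mga* and *Mlxip*) and 0 higher. At an unadjusted p below 0.05 in edgeR, 7 were lower and 2 higher. The largest changes were those of *Mitf* (-0.21), *Mga* (-0.20) and *Mlxip* (-0.16) in log2 units. *Mga*, which encodes a partner of Max, and *Mlxip*, a glucose-sensing factor gene, held in every alternative, while *Mitf* was lost in 10 of 17 alternatives (adjusted p up to 0.176). *Hif1a* and *Bhlhe40*, also called lower, were lost with DESeq2 (adjusted p = 0.112 and 0.0851) and with filterByExpr in edgeR (adjusted p = 0.0636 and 0.110). *Bhlhe40* was lost in 6 of 17 alternatives. In del9 against EV, *Mycn* (0.26) and *Myc* (0.13) were called higher and 5 genes lower, led by *Mxd4* (-0.23), *Hif1a* (-0.19) and *Arnt* (-0.10). *Myc* and *Hif1a* held in every alternative, whereas *Mycn* was lost in 9 of 17 (adjusted p up to 0.335). *Mxd4* was lost with DESeq2 (adjusted p = 0.270) and filterByExpr (adjusted p = 0.129), and *Arnt* was lost without del9 replicate 5 (adjusted p = 0.0566). Between *gdf6Y* and del9, *Mycn* was called lower (-0.34, adjusted p = 0.0330), which was lost in 7 of 16 alternatives, DESeq2 among them (adjusted p = 0.355).

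Repressors of the Snail and Zeb families also bind E-boxes. *Snai1* had between 508 and 565 normalized counts in EV, between 534 and 595 in del9 and between 602 and 681 in *gdf6Y*, without overlap between *gdf6Y* and the others. It was called higher with *gdf6Y* against EV (0.27, SE 0.046, adjusted p = 3.65e-07) in every alternative. Against del9 it was also called (0.19, SE 0.048, adjusted p = 0.0166), but not with DESeq2 (adjusted p = 0.0715), with filterByExpr (adjusted p = 0.0839) or without *gdf6Y* replicate 3 or 5 or del9 replicate 1 (adjusted p up to 0.118). *Zeb1* was called lower than in EV with *gdf6Y* (-0.16) and in del9 (-0.14) in every alternative, 2 comparisons that share the EV samples.

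Of the E-protein cofactors, 8 of 11 were tested. The histone acetyltransferase gene *Ep300* was called lower than in EV with *gdf6Y* (-0.24) and in del9 (-0.15), in every alternative. *Crebbp*, its close relative, was called lower with *gdf6Y* (-0.21) in every alternative and in del9 (-0.14), there not without EV replicate 1 or 3 or del9 replicate 4 or 5 (adjusted p up to 0.119). *Runx1t1*, which encodes a corepressor of the ETO family, was called lower in del9 (-0.21), but not without EV replicate 3 or del9 replicate 3 or 5 (adjusted p up to 0.128). Between *gdf6Y* and del9, 0 of 8 were called by DESeq2 or by edgeR without the block, and only *Ep300* had an unadjusted p below 0.05. With the replicate block, *Ep300* was called lower in edgeR (adjusted p = 0.0415). Of 4 genes for the turnover of Id proteins, *Cdc20*, an activator of the anaphase-promoting complex, was higher in del9 than in EV by 0.097 (adjusted p = 0.00927), but not without del9 replicate 5 (adjusted p = 0.101). *Usp1*, which encodes an Id deubiquitinase, had 2288 ± 87.8 normalized counts (SD, n = 6) in EV and 2402 ± 101 (SD, n = 5) in del9 and was not called in any comparison.

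Among the cyclin-dependent kinase inhibitor genes, several of which are known targets of E proteins, *Cdkn1a*, encoding p21, was called higher than in EV with *gdf6Y* (0.25, adjusted p = 0.000415) and in del9 (0.27, adjusted p = 2.66e-06). Its samples spread widely, between 323 and 595 normalized counts in EV and between 374 and 630 with *gdf6Y*, and with DESeq2 neither call held (adjusted p = 0.472 and 0.390). With filterByExpr in edgeR both calls were lost too (adjusted p = 0.323 and 0.206). The first was also lost with all 3 groups in one model and without *gdf6Y* replicate 4 (adjusted p = 0.0505 for the latter). *Cdkn1b*, encoding p27, was called lower in del9 than in EV (-0.14) and higher with *gdf6Y* than with del9 (0.13). Neither call held with DESeq2 (adjusted p = 0.0592 and 0.542) or with filterByExpr in edgeR (adjusted p = 0.0677 and 0.405), the second being lost in 9 of 16 alternatives. *Cdkn2a* was called higher in del9 by 0.092, but not with total counts or without EV replicate 2 (adjusted p up to 0.0752). Among 8 genes for other proteins that Id proteins bind, namely Ets factors and retinoblastoma proteins, *Ets2* was called lower in del9 than in EV (-0.14) in every alternative. *Rbl2* was called lower both with *gdf6Y* (-0.13) and in del9 (-0.12), each lost without EV replicate 3, and the former also without *gdf6Y* replicate 2 or 5. *Elk4* was called lower with *gdf6Y* (-0.13) and *Elk3* higher in del9 (0.088), the former lost in 9 of 17 alternatives (adjusted p up to 0.449) and the latter with total counts or without del9 replicate 3 (adjusted p up to 0.109).

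The genes most like the *Id* genes over the 16 samples were found by the root mean square difference of their z-scored log2 CPM from the standardized mean z-score of *Id1*, *Id2* and *Id3*, among genes with mean counts of 50 or more. They were *Smad7* (0.283), which encodes an inhibitory Smad, *Unc5b* (0.309), a netrin receptor gene, *Lxn* (0.313), a carboxypeptidase inhibitor gene, *Smad9* (0.391), which encodes a BMP-type Smad, and *Retsat* (0.453), a retinol saturase gene. The same 5 genes were nearest to *Atoh8*, with *Lxn* first (0.243). The *Id* genes themselves were at 0.142 to 0.155 from their mean and *Atoh8* at 0.238, whereas *Tcf3*, *Tcf4* and *Tcf12* were at 1.41 to 1.63. All 5 were higher in every *gdf6Y* sample than in every other sample, with a log2 fold change against EV between 0.15 for *Retsat* and 0.65 for *Smad9*. They were found by their pattern, so these values carry no test.

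The labelled cell type was checked by marker genes. Of 11 Sertoli cell markers, 5 reached a mean count of 10, among them *Gata4*, *Kitl* and *Dhh*. *Wt1* and *Dmrt1* had no read in any sample, and *Amh*, *Nr5a1*, *Fshr* and *Cldn11* had a mean count below 10. The summed level of the Sertoli cell markers was 1682 to 1770 normalized counts in EV, 1570 to 1734 in del9 and 1497 to 1619 in *gdf6Y*, and *Gata4* was called lower with *gdf6Y* than with EV (-0.20, adjusted p = 9.98e-05 in edgeR). Of 4 granulosa cell markers, only *Fst* had reads, and it was called higher in del9 than in EV (0.44) and lower with *gdf6Y* than with del9 (-0.29). The latter call was lost with DESeq2 (adjusted p = 0.725) and with filterByExpr in edgeR (adjusted p = 0.345). Of 4 peritubular and smooth muscle markers, whose sum lay between 4478 and 5057 in all samples, 3 reached a mean count of 10. Nearly all of this sum was *Acta2*, with a mean of 4530 in EV. The EV means of *Des*, *Cnn1* and *Myh11* were 44.1, 32.0 and 0.678. None of these markers was called by edgeR without the replicate block. *Acta2*, named after its values were seen, was called by DESeq2 in *gdf6Y* against EV, where its log2 fold change in edgeR was 0.082 (adjusted p = 0.0654). With the replicate block it was also called in edgeR (adjusted p = 0.00732). Of 5 Leydig cell markers, only *Star* reached a mean count of 10, and their sum lay between 19.3 and 35.8. The sum of 3 germ cell markers was at most 5.47. The part of these shifts in the differences of the *Id* and E-protein genes was not tested, and fewer cells expressing a gene cannot be told apart from less RNA per cell in bulk samples.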

How the data were processed

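RNA-seq libraries were strand-specific, made from poly(A) RNA of 300 ng total RNA, and carried unique molecular identifiers. The authors demultiplexed with bcl2fastq 2.20.0.422, aligned reads to GRCm39 with STAR 2.7.10a, collapsed PCR duplicates with UMI-tools and assigned reads to genes by strand with featureCounts 2.0.3, discarding multi-mapping and overlapping reads. The deposited values are whole-number counts of reads per gene without normalization. Since reads shared between genes were discarded, paralogs lose reads rather than exchange them. The authors had excluded one *gdf6Y* and one del9 sample for quality.

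Symbols, positions and exonic lengths came from GENCODE M39 (GRCm39), which matched 56017 of the 56748 identifiers and is not the release the authors counted with. All genes with 1 or more counts in a sample of the comparison were fitted in edgeR 4.0.16 (R 4.3.3), 2 groups per model, with TMM scaling, the quasi-likelihood test and Benjamini-Hochberg adjustment over all genes tested. A gene was called at an adjusted p-value below 0.05. SE is the absolute log2 fold change divided by the square root of its F statistic, and the 95% intervals use it. The F statistic shares variance information between genes, so SE is not the replicate spread of 1 gene. For *Cdkn1a* in *gdf6Y* against EV it was 0.055, at SDs of 115 and 107 on means of 509 and 429. For *Id2* in that comparison it was 0.048, against 0.064 in DESeq2. At 21486850 to 26444903 reads per sample, SE was 0.028 to 0.052 for the *Id* and E-protein genes and 0.11 to 0.14 for *Atoh8*, which has fewer reads. The steps were tested on counts simulated with the same dispersion for all genes and without pairing. That setting cannot show how often genes of wide spread, such as *Cdkn1a*, are called in error.

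The 7 genes and the lists were chosen with earlier results of these data known. Of each list, the genes named were up to 3 per direction with the largest change among those called with mean counts of 10 or more, and further genes are named for context. Likeness used log2 CPM with a pseudocount of 0.5. Replicate numbers are shared between groups. Deviations from the group means of *gdf6Y* and del9 samples with the same number correlated by 0.139 to 0.168 over 11899 genes, above 0.1 for every number, so the numbers were taken to pair these samples. Alternatives were DESeq2 1.42.0, other scalings, filterByExpr, all 3 groups in one model, the replicate block and each replicate left out. Protein sequences were not used here.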

Additional observations from a re-analysis of the deposited data

How the results depend on the processing

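*Id1*, *Id3*, *Atoh8*, *Tcf3* and *Tcf4* kept their direction in every comparison under all alternatives run, and *Id2* did too. In del9 against EV the log2 fold change of *Id2* was 0.145 with DESeq2 (adjusted p = 0.0636), 0.15 with DESeq2 size factors in edgeR (adjusted p = 0.0545), 0.13 with total counts (adjusted p = 0.0885) and 0.15 with all 3 groups in one model (adjusted p = 0.0690), each no longer called. It was between 0.13 and 0.17 with each replicate left out. In *gdf6Y* against del9, the replicate block gave -0.11 for *Tcf3* and 0.096 for *Tcf4*, both then called, and leaving out replicates gave -0.14 to -0.092 for *Tcf3*. Of the fits with a replicate left out, *Tcf3* was called only in that without del9 replicate 4, and *Tcf4* in none. *Tcf12* turned to 0.0009 with total counts and ranged from -0.025 to 0.0047 (without *gdf6Y* replicate 5). The cause was not tested.

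In *gdf6Y* against EV, the replicate block raised the genes called higher to 912, against 448. Leaving out a replicate gave 235 to 718 higher (718 without *gdf6Y* replicate 1, 289 without replicate 3 and 235 without replicate 5) and 559 to 1033 lower (559 without *gdf6Y* replicate 5). In *gdf6Y* against del9, 48 higher and 33 lower were called with DESeq2, 26 and 19 with filterByExpr, and 289 and 372 with the block. Leaving out a replicate gave 94 to 243 higher and 66 to 198 lower (94 and 66 without del9 replicate 2, 243 and 198 without del9 replicate 1, 197 lower without *gdf6Y* replicate 1). List genes called there were 3, against 0 with DESeq2 and with filterByExpr, 1 with all 3 groups in one model, 8 with the block and 1 to 5 with replicates left out (5 without *gdf6Y* replicate 2 or del9 replicate 4, 1 without *gdf6Y* replicate 4, del9 replicate 2 or del9 replicate 5).

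Same-numbered samples correlated by 0.0737 to 0.223 for *gdf6Y* and EV and by 0.0382 to 0.175 for del9 and EV, not above 0.1 for every number, and 7 and 3 of 10 samples correlated best with their own number, against 8 of 10 for *gdf6Y* and del9. With the block, the calls of the 7 genes against EV did not change. List genes called with the block were 3 higher and 12 lower in *gdf6Y* against EV, and 7 and 14 in del9 against EV.

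The balance changed by 0.74 without *Id1* and 0.88 without *Id3* in *gdf6Y* against EV, and by 0.65 without *Tcf3* in *gdf6Y* against del9. In del9 against EV it changed by -0.0088 without *Id1*, 0.17 without *Id3* and 0.22 without *Tcf3*. Depth limits *Atoh8* and *Id4* most. Of the 38 called results of list and marker genes, 14 were called in every alternative and 24 were lost in 1 or more, without a change of direction.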
